A study of Mus musculus with 6 samples.

Results

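The genes described here are 6 transcripts that mark naive CD8 T cells, the CD8+ T cells that have left the thymus and have not yet met antigen: Dapl1, Igfbp4, Il6ra, Actn1, Txk and S1pr1. They were taken as a named list, each is read by 1 probe set that names no other gene, and they are 6 of the 22180 genes measured on the arrays. RNA was hybridised to 6 Affymetrix whole-transcript arrays, 3 labelled Dot1l knockout (replicates 1, 2 and 3) and 3 labelled wild type (replicates 1, 2 and 3). All 6 came from CD8+ T cells of C57BL/6 mice that were isolated fresh, with a magnetic kit, from peripheral lymph nodes and spleen, and no treatment is recorded. The knockout was made by crossing Dot1l flox/flox mice with CD4-Cre mice, a Cre that is driven by Cd4 regulatory elements and is active in thymocytes before CD4 and CD8 T cells separate, so that it acts in both lineages. Which of these alleles the wild type mice carried is not given in the labels, nor are the age, sex and number of animals behind an array. P-values therefore measure only the spread between these arrays, which may be technical.

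Naive T cells circulate between blood and lymphoid organs in a resting state that is held in place by transcription factors such as Tcf7, Lef1, Foxo1 and Klf2, and they lose it when they meet antigen. Of the 6 genes, 2 encode cell surface receptors. Il6ra is the ligand-binding chain of the interleukin-6 receptor, which is high on naive T cells and is lost or shed after activation, and S1pr1 is the sphingosine-1-phosphate receptor through which T cells leave lymphoid organs. Igfbp4 is a secreted protein that binds insulin-like growth factors. Actn1 cross-links actin filaments and ties them to adhesion sites, Txk is a kinase of the Tec family that acts below the T cell receptor, and Dapl1 is a small relative of the death-associated protein Dap whose transcript is abundant in naive T cells. Dot1l is the methyltransferase of lysine 79 of histone H3, a mark found along transcribed genes.

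Dot1l itself read 7.31, 7.26 and 7.33 on the log2 scale in knockout-labelled arrays, against 7.46, 6.96 and 7.18 in wild type arrays. The ranges overlapped, with a difference of 0.10 (SE 0.13, adjusted p = 0.765 by limma). The labels do not say which exon is floxed, and a probe set outside it does not check the label, so the groups are named as labelled. The preparations carried the defining transcripts of CD8 T cells in both groups: Cd8a read 10.9 and 11.1, Cd8b1 11.2 and 11.3 and Cd3e 11.7 and 11.8 in knockout-labelled and wild type arrays. Of 9 such T cell genes 1 fell, Cd5, an inhibitor of T cell receptor signalling, to 8.65 ± 0.06 in knockout-labelled against 9.66 ± 0.02 in wild type arrays (log2 difference -1.01, SE 0.10, adjusted p = 0.000376), while Thy1, with the next smallest p, differed by 0.31 (adjusted p = 0.199). Cd4 stood at 3.86 in knockout-labelled arrays and 3.79 in those from wild type, beside a background guide of 3.84, the 95th percentile of 1390 olfactory and vomeronasal receptor genes. Over all genes 954 passed as higher (4.30%) and 266 as lower (1.20%). That split became 625 and 470 after another quantile normalization, which left the 4 calls among the markers in place.

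Of the 6 marker genes, 4 were lower in the knockout-labelled arrays, 0 were higher and 2 did not pass the test. Dapl1 fell 5.24-fold, Igfbp4 4.29-fold, Il6ra 2.53-fold and Actn1 1.6-fold, whereas the values of Txk and S1pr1 overlapped between the groups. A gene passed when its adjusted p was under 0.05 in a linear model fitted over all 22180 genes (limma with Benjamini-Hochberg adjustment). Over all genes 5.50% passed, 1.20% as lower and 4.30% as higher. Among the 2238 genes whose probe sets were at least as bright as that of the dimmest marker 2.90% passed as lower. In those same 4 markers every knockout-labelled value lay below every wild type value, against 9.78% of all genes. The median log2 difference of the 6 markers was -1.01, against -0.01 over all genes. The markers were proposed with results of these arrays in view, so these counts describe them and are not independent evidence. In RNA from a mixed population, fewer cells of a kind and less RNA per cell cannot be told apart.

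**Figure D1:**
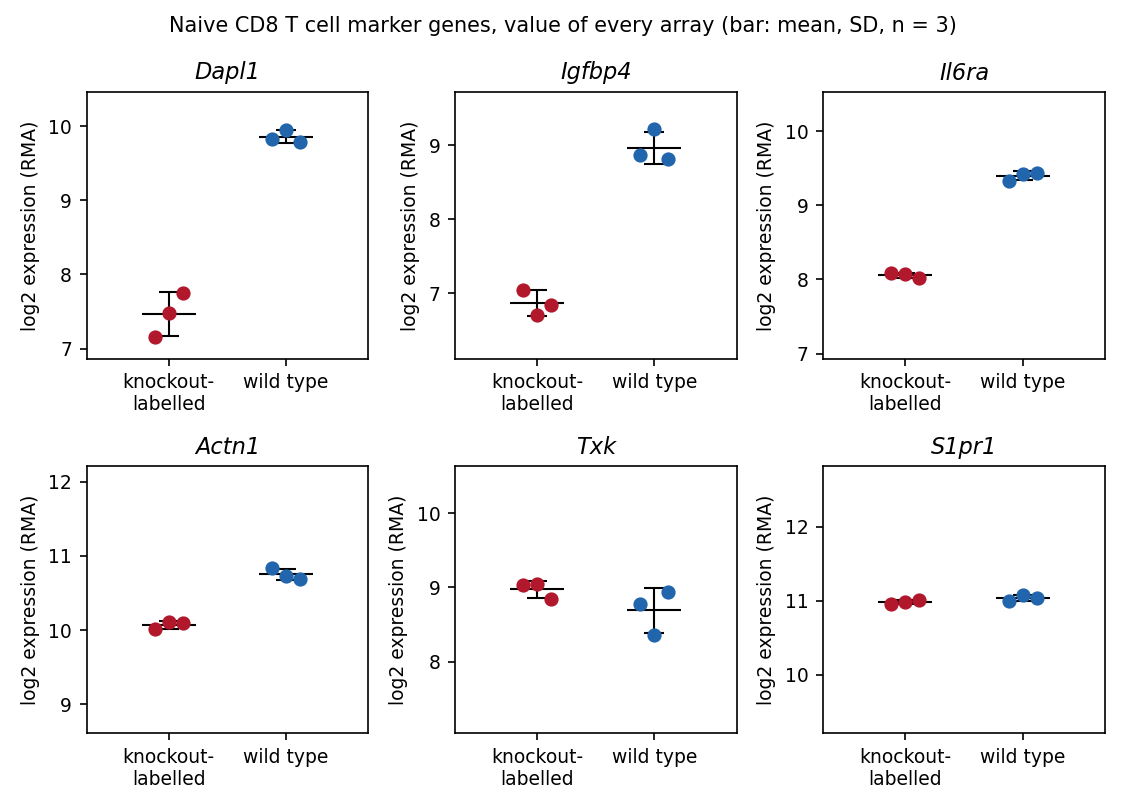
Log2 expression of the 6 naive CD8 T cell marker genes on every array, with the knockout-labelled arrays on the left of each panel and the wild type arrays on the right; horizontal bars are means, vertical bars are SD (n = 3 arrays a group), and every panel spans the same log2 range. Dapl1, Igfbp4, Il6ra and Actn1 show no overlap between the groups, while Txk and S1pr1 do.

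The start regions of the 4 markers that fell are shown to set out what they share, and do not share, beyond their values. Sequences are RefSeq windows of the GRCm38.p6 assembly, from 250 bases before to 50 bases after the start, 5′ to 3′ on the gene's strand: chr2:59484403-59484702 on the plus strand for Dapl1, chr11:99040994-99041293 on the plus strand for Igfbp4, chr3:89913147-89913446 on the minus strand for Il6ra and chr12:80260314-80260613 on the minus strand for Actn1. Capitals mark a match to GTAAACA, a letter pattern of FOXO factors, or to TATAAA, the core of the promoter element of that name.
Dapl1: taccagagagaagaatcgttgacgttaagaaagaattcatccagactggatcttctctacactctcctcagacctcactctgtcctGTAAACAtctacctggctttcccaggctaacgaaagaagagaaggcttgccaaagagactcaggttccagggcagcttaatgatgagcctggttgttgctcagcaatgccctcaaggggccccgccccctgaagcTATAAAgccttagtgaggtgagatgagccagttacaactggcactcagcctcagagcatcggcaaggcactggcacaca
Igfbp4: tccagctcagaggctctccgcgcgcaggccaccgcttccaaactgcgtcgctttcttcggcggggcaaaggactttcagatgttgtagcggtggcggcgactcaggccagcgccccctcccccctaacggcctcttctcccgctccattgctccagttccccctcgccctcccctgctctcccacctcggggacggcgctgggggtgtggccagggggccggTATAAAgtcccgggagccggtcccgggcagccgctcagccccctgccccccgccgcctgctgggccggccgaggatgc
Il6ra: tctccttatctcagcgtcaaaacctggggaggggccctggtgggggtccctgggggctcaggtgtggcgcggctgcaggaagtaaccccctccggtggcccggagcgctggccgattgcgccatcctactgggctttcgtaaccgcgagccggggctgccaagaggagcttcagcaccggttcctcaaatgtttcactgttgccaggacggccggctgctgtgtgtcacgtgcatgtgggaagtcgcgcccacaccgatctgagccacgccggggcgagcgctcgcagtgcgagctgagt
Actn1: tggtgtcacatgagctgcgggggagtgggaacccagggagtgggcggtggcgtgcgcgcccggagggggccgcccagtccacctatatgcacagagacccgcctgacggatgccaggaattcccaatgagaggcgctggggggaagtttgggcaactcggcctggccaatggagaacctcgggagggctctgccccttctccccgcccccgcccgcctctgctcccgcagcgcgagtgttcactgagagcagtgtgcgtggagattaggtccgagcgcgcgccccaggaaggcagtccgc

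These windows were searched on both strands for 8 letter patterns. The Dapl1 window held GTAAACA, which begins at position -164 from the start and is present in 3.65% of 32851 windows of the same length. Dapl1 and Igfbp4, the markers with the largest falls, each held TATAAA, at -29 and -28, against 13.6% of all windows. That pattern was added after the sequences were seen. The windows of Il6ra and Actn1 held none of the 8, and the 4 windows held none of CTTTGA (TCF7 and LEF1, 16.0% of all windows), TGTGGT (RUNX, 16.8%), CCACCC (KLF, 31.5%), TTCNNNGAA (STAT, 8.30%), CCGGAA (ETS, 14.9%) or the interferon-stimulated response element (3.44%). The windows differed in base composition. Igfbp4, Il6ra and Actn1 held 27, 25 and 24 CpG pairs and 71.3%, 66.0% and 68.3% G and C, whereas Dapl1 held 5 CpG pairs and 51.0% G and C, against a median of 7 CpG pairs and 52.7% over all windows. Txk, which did not fall, has 2 start windows in RefSeq, each with 4 CpG pairs and 42.7% G and C. The first held CTTTGA on the opposite strand at -192 and the second TGTGGT on the opposite strand at -20. A match of letters describes the sequence only.

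Dapl1 showed the largest difference of the 6. Its log2 values were 7.16, 7.48 and 7.75 in knockout-labelled arrays, against 9.83, 9.95 and 9.78 in wild type arrays. The knockout-labelled arrays were all lower, with an SD of 0.30 against 0.09 in wild type arrays. The log2 difference was -2.39 (SE 0.15, 95% interval -2.73 to -2.05, adjusted p = 4e-05), and the 9 differences between a knockout-labelled and a wild type array ranged between -2.80 and -2.03. Dapl1 remained well above the background guide in the knockout-labelled arrays. Its relative Dap, a suppressor of autophagy, read 9.45, 9.14 and 9.24 in knockout-labelled arrays and 8.85, 9.14 and 8.82 in those from wild type (0.34, SE 0.13, 95% interval 0.05 to 0.62), which did not pass (adjusted p = 0.2).

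Igfbp4 followed. Its log2 values were 7.05, 6.71 and 6.84 in knockout-labelled arrays, against 8.87, 9.21 and 8.82 in wild type arrays. The 9 differences between arrays ranged between -2.51 and -1.77, and the log2 difference was -2.10 (SE 0.14, 95% interval -2.41 to -1.79, adjusted p = 5.1e-05). Igfbp4 protein holds insulin-like growth factors away from their receptor, and it is cut by the protease Pappa, which stanniocalcins block. Of 14 genes of this system other than Igfbp4, 2 rose, 0 fell and 12 did not pass. Igf1r, the signalling receptor of these growth factors, rose to 5.86, 5.94 and 5.94 in knockout-labelled arrays, against 4.95, 4.95 and 5.0 in wild type arrays (log2 difference 0.95, SE 0.09, adjusted p = 0.000469). The binding protein fell and the receptor rose, each without overlap between the groups. Over all genes 9.78% were lower and 13.7% higher without overlap. Igf2r, which clears Igf2, rose by 0.56 (SE 0.12, adjusted p = 0.0282), a call that ended without knockout replicate 1, 2 or 3 or wild type replicate 3 (adjusted p up to 0.112) and after another quantile normalization (adjusted p = 0.0533). The remaining 12 included all 6 other binding proteins measured. Of the 14 genes, 8 lay below the background guide in both groups: Igfbp1, Igfbp2, Igfbp3, Igfbp5, Igf2, Pappa, Pappa2 and Stc1. Igf1 lay below it in knockout-labelled arrays (3.59). For genes at that level, not passing does not show that they were unchanged.

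Il6ra was the most even of the markers that fell. It read 8.09, 8.07 and 8.02 in knockout-labelled arrays, against 9.33, 9.43 and 9.44 in wild type arrays. The 9 differences between arrays ranged only between -1.41 and -1.24, and the log2 difference was -1.34 (SE 0.10, 95% interval -1.55 to -1.12, adjusted p = 7.42e-05). Of 12 measured genes that act with it, 1 fell, 2 rose and 9 did not pass. The gene that fell was Il6st, which encodes gp130, the signalling chain shared by receptors of the interleukin-6 family. It read 9.41, 9.75 and 9.62 in knockout-labelled arrays, against 10.33, 10.08 and 10.28 in wild type arrays (log2 difference -0.64, SE 0.12, adjusted p = 0.0161). Both chains of the interleukin-6 receptor were lower without overlap between the groups, as were 9.78% of all genes. The call of Il6st, however, ended without knockout replicate 1 or 3 or wild type replicate 1 or 3 (adjusted p up to 0.0659). Downstream, Socs3, the feedback inhibitor that binds gp130, rose to 8.34, 8.28 and 8.36 in knockout-labelled arrays, against 7.75, 7.80 and 7.71 in wild type arrays (0.57, SE 0.10, adjusted p = 0.00783). The kinase gene Jak2 rose by 0.55 (SE 0.10, adjusted p = 0.0154), a call lost when knockout replicate 2 or 3 was left out (adjusted p = 0.0748 and 0.0798). Stat3, the main transcription factor of the pathway, differed by -0.14 (95% interval -0.40 to 0.11), and the sheddase genes Adam10 and Adam17 by -0.15 and -0.04, none of which passed. The cytokine Il6 itself lay below the background guide, at 2.86 in knockout-labelled arrays and 2.67 in those from wild type.

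S1pr1, the other receptor, did not pass. It read 10.96, 10.99 and 11.02 in knockout-labelled arrays, against 11.00, 11.08 and 11.04 in wild type arrays. The ranges overlapped and the log2 difference was -0.05 (SE 0.09, adjusted p = 0.831), with a 95% interval of -0.26 to 0.16 that lies above the values of all 4 markers that fell. Klf2, the transcription factor that drives S1pr1, read 10.39, 10.08 and 10.13 in knockout-labelled arrays and 10.23, 10.58 and 10.25 in those from wild type (-0.16, 95% interval -0.46 to 0.15, adjusted p = 0.616). Cd69, which draws S1pr1 protein from the surface of activated cells, differed by 0.14 (95% interval -0.07 to 0.35, adjusted p = 0.509). Of 14 measured genes of this pathway 1 rose, 0 fell and 13 did not pass. The rise was in S1pr5, a sphingosine-1-phosphate receptor of effector and NK cells, which read 4.79, 4.53 and 4.53 in knockout-labelled arrays, against 4.08, 4.03 and 4.11 in wild type arrays (0.54, SE 0.11, adjusted p = 0.0194). That call ended without knockout replicate 1, 2 or 3 or wild type replicate 3 (adjusted p up to 0.0786) and after another quantile normalization (adjusted p = 0.0692). Sgpp1, a phosphatase that degrades sphingosine-1-phosphate, had the next smallest p, with a difference of -0.32 (adjusted p = 0.148).

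Actn1 had the smallest fall that passed. Its log2 values were 10.01, 10.11 and 10.09 in knockout-labelled arrays, against 10.83, 10.73 and 10.69 in wild type arrays. The groups were tight and did not overlap, and the log2 difference was -0.68 (SE 0.10, 95% interval -0.90 to -0.46, adjusted p = 0.00388). Of the 11 adhesion and actin genes set beside it, 3 rose, 0 fell and 8 did not pass. Vcl, which encodes vinculin, a protein that alpha-actinin binds at adhesion sites, rose to 6.03, 5.99 and 6.00 in knockout-labelled arrays, against 4.35, 4.18 and 4.79 in wild type arrays (log2 difference 1.56, SE 0.15, adjusted p = 0.000401). Flna, another actin cross-linker, rose by 0.52 (SE 0.10, adjusted p = 0.0161) and Itgal, the alpha chain of the integrin LFA-1, by 0.47 (SE 0.10, adjusted p = 0.0211). The call of Flna was lost when knockout replicate 1 or 3 was left out (adjusted p up to 0.0824), and Itgal passed only without wild type replicate 2 among the 6 fits that left out an array (adjusted p up to 0.0966). With the replicate number as a block neither passed (adjusted p = 0.0505 and 0.0722). Zyx, which encodes the adhesion protein zyxin, read 8.94, 8.55 and 8.65 in knockout-labelled arrays, against 7.85, 8.39 and 8.03 in wild type arrays, and narrowly missed the threshold (0.63, SE 0.16, adjusted p = 0.0554). It passed without wild type replicate 2 (0.77, adjusted p = 0.0178) and in 4 other settings (adjusted p of 0.0177 to 0.047). Tln1, which encodes talin (0.31, adjusted p = 0.104), passed in the robust fit with a mean trend and above the 50th percentile of level (adjusted p = 0.0228 and 0.0458). The other alpha-actinin genes did not pass: Actn4, the other non-muscle form, differed by 0.10 (95% interval -0.14 to 0.34, adjusted p = 0.68) and Actn3, which lay below the background guide, by 0.04.

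Txk had the only positive difference of the 6 and did not pass. It read 9.03, 9.05 and 8.84 in knockout-labelled arrays, against 8.78, 8.35 and 8.94 in wild type arrays. The low value of wild type replicate 2 widened the wild type spread to an SD of 0.30, and the log2 difference was 0.28 (SE 0.15, 95% interval -0.06 to 0.63, adjusted p = 0.389). Without that array it was 0.11 (adjusted p = 0.677). None of the 8 measured signalling genes set beside Txk passed, and their differences lay between -0.12 and 0.31. The smallest p in this group was that of Fyn, a Src family kinase, which read 9.33, 9.27 and 9.28 in knockout-labelled arrays and 8.97, 8.88 and 9.10 in those from wild type (0.31, adjusted p = 0.138). It passed when the fit used a mean trend and was made robust (adjusted p = 0.0363). Tec, which names the kinase family, differed by -0.12 (adjusted p = 0.615).

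**Figure D2:**
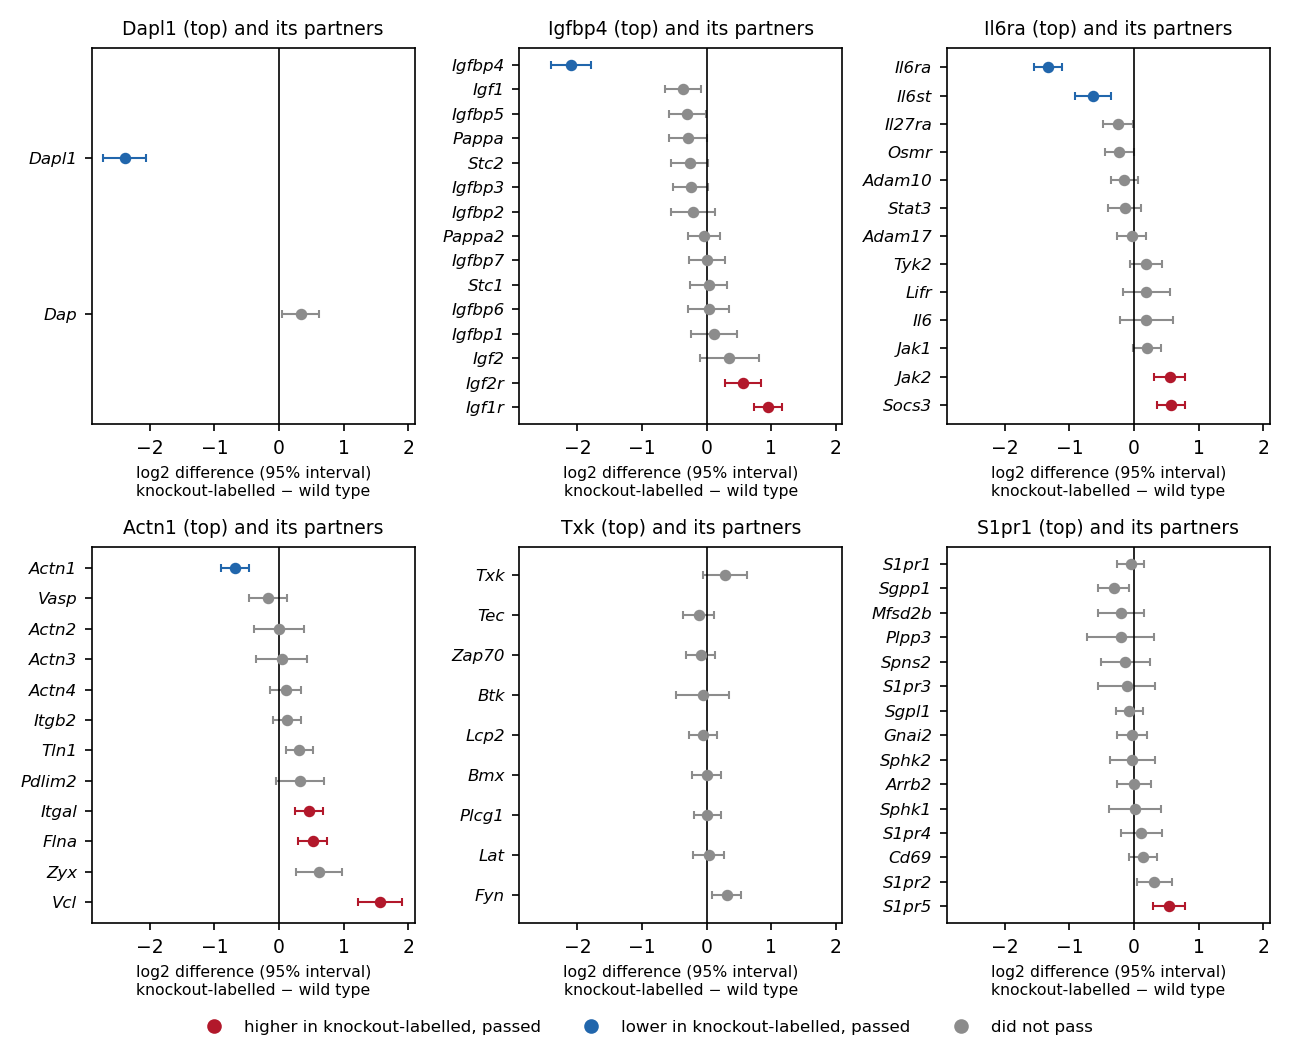
Log2 differences (knockout-labelled minus wild type, limma) of each marker, in the top row of its panel, and of the genes that act with it, with 95% intervals from 3 arrays a group; red passed as higher, blue passed as lower and grey did not pass. Il6st is the only partner that passed as lower, while Igf1r, Igf2r, Jak2, Socs3, Vcl, Flna, Itgal and S1pr5 passed as higher.

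Over the 60 measured partner genes of all 6 markers 8 rose, 1 fell and 51 did not pass, against 4.30% higher and 1.20% lower over all genes. Among the 60, 16 lay below the background guide in both groups. The median log2 difference of the partner genes was 0.01. Of these 9 calls, those of Igf1r, Socs3 and Vcl held whichever array was left out.

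In a wider list of naive and quiescence genes, changes ran both ways. Of 24 other genes measured 4 fell, 2 rose and 18 did not pass, against 1.20% lower and 4.30% higher over all genes. Their median log2 difference was -0.04, against -0.01 over all genes. Cd55, a brake on complement, read 7.35, 7.60 and 7.41 in knockout-labelled arrays, against 8.62, 8.37 and 8.52 in wild type arrays (-1.05, SE 0.12, adjusted p = 0.000877). The integrin gene Itga6 fell by 0.84 on the log2 scale (SE 0.11, adjusted p = 0.00194) and Lef1, a transcription factor of naive T cells, by 0.63 (SE 0.10, adjusted p = 0.00537). Sox4, a transcription factor, went the other way and read 5.94, 6.19 and 6.00 in knockout-labelled arrays, against 4.87, 4.85 and 4.71 in wild type arrays (1.23, SE 0.11, adjusted p = 0.000257). The fall of the receptor component gene Ramp1 (-0.63, adjusted p = 0.0498) and the rise of the antiproliferative gene Tob1 (0.48, adjusted p = 0.0277) each ended without knockout replicate 1, 2 or 3 or wild type replicate 2 or 3 (adjusted p up to 0.179 and 0.123) and with the replicate block (0.0703 and 0.0866). The homing receptor gene Ccr7 differed by -0.26 (95% interval -0.49 to -0.04, adjusted p = 0.196) and the survival receptor gene Il7r by 0.32 (95% interval 0.07 to 0.57, adjusted p = 0.16). Among the settings tried, both passed only in the robust fit with a mean trend (adjusted p = 0.0267 and 0.0282). In that fit Foxo1 (0.26) and Bcl2 (0.34) also passed as higher and Dgka (-0.29) as lower (adjusted p = 0.0365, 0.0318 and 0.0226).

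**Figure D3:**
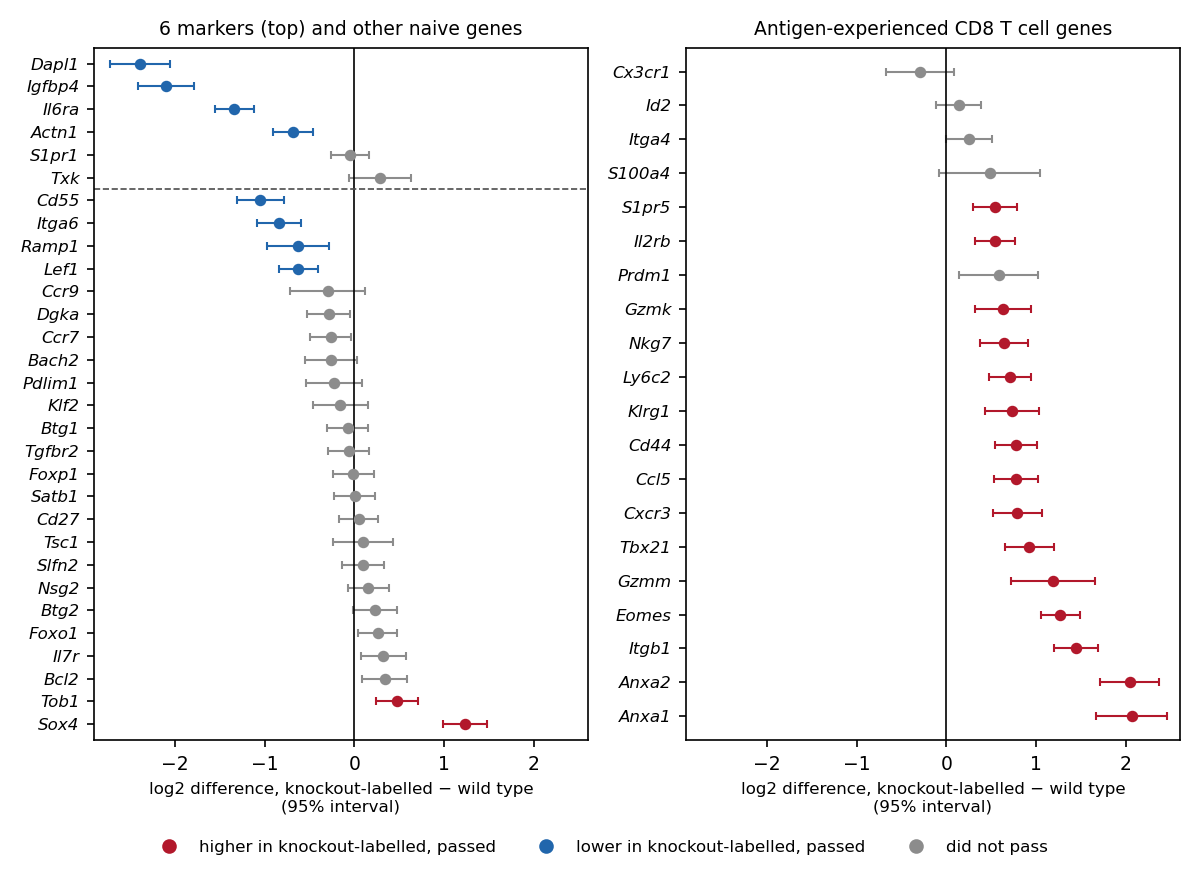
Log2 differences (knockout-labelled minus wild type, limma) with 95% intervals from 3 arrays a group, on the left for the 6 markers (above the dashed line) and 24 other naive genes, on the right for 20 genes of antigen-experienced CD8 T cells; colours mark genes that passed as higher (red), passed as lower (blue) or did not pass (grey). The other naive genes lie on both sides of 0, while 15 of the 20 antigen-experienced genes passed as higher.

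Genes of antigen-experienced CD8 T cells were higher in the arrays in which the 4 markers were lower. Of 20 measured genes 15 rose, 0 fell and 5 did not pass, against 4.30% higher over all genes. The list was chosen with results of these arrays known. Its median log2 difference was 0.72 (0.65 after another quantile normalization), against -0.01 over all genes. Of the 15 calls, 10 held whichever array was left out. S1pr5, Klrg1 and Gzmk did not pass after another quantile normalization (adjusted p = 0.0692, 0.0838 and 0.1). Of the 5, Prdm1 (0.58, adjusted p = 0.141) passed without wild type replicate 2 and with array weights (adjusted p = 0.0141 and 0.0477). Only Cx3cr1 lay below 0 (-0.29, adjusted p = 0.412). Cd44, the classical surface marker of these cells, read 7.07, 6.95 and 6.83 in knockout-labelled arrays, against 6.13, 6.18 and 6.23 in wild type arrays (0.77, SE 0.10, adjusted p = 0.00266). The T-box factor gene Eomes rose by 1.27 (SE 0.10) and its relative Tbx21 by 0.93 (SE 0.12). The annexin genes Anxa1 and Anxa2 rose by 2.06 (SE 0.18) and 2.04 (SE 0.15), the integrin gene Itgb1 by 1.45 (SE 0.11), the chemokine gene Ccl5 by 0.77 (SE 0.11) and Ly6c2 by 0.71 (SE 0.10). Anxa1 read 3.82 in wild type arrays, just below the background guide, so the size of its rise is uncertain. Averaged over the list, the log2 level was 7.87 to 8.13 in knockout-labelled arrays and 7.13 to 7.28 in those from wild type. The same average over the 6 naive markers was 8.72 to 8.76 in knockout-labelled arrays and 9.77 to 9.79 in those from wild type. The part of a change in the mix of naive and antigen-experienced cells in the fall of the markers was not tested.

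Several of the markers are also known from other cells: S1pr1 from endothelium and B cells, Igfbp4 from stroma, Actn1 from platelets and Il6ra from myeloid cells. Of 8 stromal and endothelial genes, 5 platelet genes and 2 erythroid genes (those measured of 5 listed) 0 passed. For these and the lists that follow, the shares over all genes were 4.30% higher and 1.20% lower. The stromal gene Pdgfrb passed as higher without knockout replicate 3 (0.70, adjusted p = 0.0458). The smallest adjusted p in the first list were 0.0926 (Pdgfrb, 0.54) and 0.295 (Pecam1, -0.21, a gene that T cells also express), in the second 0.342 (Treml1, -0.22) and 0.463 (Pf4, 0.20) and in the last 0.443 (Slc4a1, -0.38) and 0.568 (Klf1, -0.14). Cdh5, Kdr, Tek and Col3a1 lay below the background guide in both groups, as did the platelet genes Pf4 and Ppbp. The averaged log2 level of the stromal and endothelial list was 4.30 to 4.41 in knockout-labelled arrays and 4.24 to 4.39 in those from wild type, and that of the platelet list 3.81 to 4.05 and 3.94 to 4.04 in the same order of groups. Among 10 genes of monocytes, macrophages and neutrophils, 2 rose (Mpeg1 by 1.32, below the guide in wild type arrays, and Itgam by 0.60) and 0 fell, while Cd14, Adgre1, Ly6g, S100a8 and S100a9 lay below the guide. The call of Itgam was lost when knockout replicate 1 or 2 or wild type replicate 1 or 3 was left out (adjusted p up to 0.0906) or after another quantile normalization (adjusted p = 0.127). That list averaged 3.78 to 3.97 in knockout-labelled arrays and 3.66 to 3.92 in those from wild type. Of 12 B cell genes 4 rose, 1 fell and 7 did not pass, against 4.30% higher and 1.20% lower over all genes. The 4 were Cd22 (1.29, adjusted p = 0.00143), Ms4a1 (1.13, below the guide in wild type arrays), Ly6d (0.82) and Cd79a (0.86). Ighm fell by 0.60 on the log2 scale, and with its probe sets averaged the difference was -1.06 with an adjusted p of 0.18. Pax5, Ebf1, Cr2 and Fcrla lay below the guide in both groups. The average of the B cell list was 5.03 to 5.21 in knockout-labelled arrays and 4.66 to 4.84 in those from wild type, and their part in the values of the 6 markers was not tested. The call of Cd79a held only without wild type replicate 3 among the fits that left out an array (adjusted p up to 0.165). It was also lost after another quantile normalization (adjusted p = 0.136), after median centring (0.0612), with array weights (0.0755) and with probe sets tested singly (0.0534). Of 7 genes of CD4 and regulatory T cells, Ikzf2 (1.16) and Il2ra (0.69) passed as higher and Cd40lg as lower (-0.88, below the guide in knockout-labelled arrays). Ctla4 (-0.54, adjusted p = 0.0752) passed as lower without wild type replicate 2 (-0.71, adjusted p = 0.00948). It also passed after median centring, above the 50th percentile of level, with array weights and in the robust fit with a mean trend (adjusted p of 0.0234 to 0.0462). Of 6 genes of NK and innate-like T cells, Tyrobp (0.43) passed as higher and Cd163l1 (-0.79) as lower. Klrb1c had the largest difference of that list (0.90, adjusted p = 0.151), with wild type values of 2.75, 4.14 and 2.86 around the guide, and it passed without wild type replicate 2 (1.34, adjusted p = 0.0004) and with array weights (adjusted p = 0.0289). Ncr1 (0.44, adjusted p = 0.0719) passed above the 50th percentile of level (adjusted p = 0.0378). Tyrobp did not pass whichever array was left out, Cd163l1 did not without knockout replicate 2 or 3 or wild type replicate 1 or 3, and Il2ra did not without any of the 3 knockout replicates (adjusted p up to 0.135, 0.102 and 0.0837). After another quantile normalization Tyrobp and Il2ra did not pass either (adjusted p = 0.148 and 0.0559). Tyrobp was also lost with the replicate block, after median centring and in the robust fit with a mean trend (adjusted p = 0.098, 0.0726 and 0.0687). Of 7 dendritic cell genes Itgax (1.14) passed as higher and Cd209a (-0.37) did not pass.

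The genes whose profile over the 6 arrays lay nearest to each marker were found by the root mean square difference of log2 values after subtracting each gene's own mean, a description without a test in which the difference between the groups weighs most. Dapl1 lay nearest to Bpifa2 (0.17), then to Igfbp4 (0.30), and next to the lymphocyte GTPase gene Gimap7 (0.55). Igfbp4 lay nearest to Dapl1 (0.30), Bpifa2 (0.31) and Slc35g1 (0.34), so these 2 markers named each other. Nearest to Il6ra were Cyth3, an exchange factor of small GTPases (0.09), Chil5 (0.13) and the carboxypeptidase gene Cpm (0.15), and nearest to Actn1 were the heparan sulfate polymerase gene Ext1 (0.03), the lipid kinase gene Pip4k2a (0.05) and the ubiquitin ligase gene Siah1a (0.05). All of these passed as lower. Chil5 read 3.18 in knockout-labelled arrays, below the background guide. Txk lay nearest to the phosphate transporter gene Slc20a1 (0.04), Ttll3 (0.04) and Exo5 (0.05), and S1pr1 to Pigk, Bckdhb and Prpf4 (0.02 each), none of which passed.

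**Figure D4:**
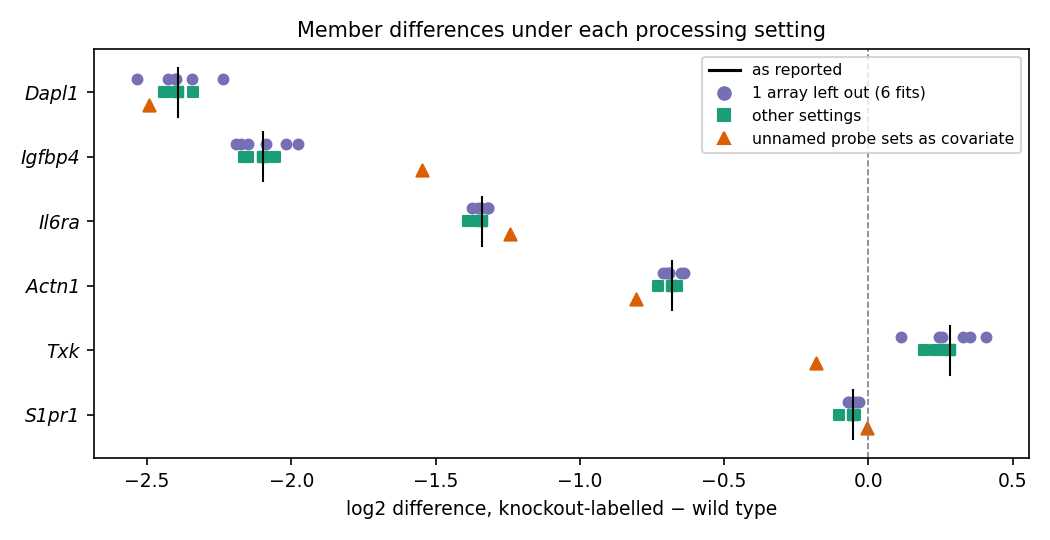
Log2 difference (knockout-labelled minus wild type) of each marker under every processing setting: the vertical line is the reported value, circles are the 6 fits that left out 1 array, squares are the 9 other settings chosen with the design, and the triangle is the fit with the mean of unnamed probe sets as a covariate. Dapl1, Igfbp4, Il6ra and Actn1 stay below 0 throughout, and only Txk crosses 0, under the covariate. Squares can leave the line only for another quantile normalization, median centring and array weights.

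The 4 markers that fell did so under each alternative chosen with the design. Only leaving out an array, another quantile normalization, median centring and array weights could move their differences. In the 6 fits that left out 1 array the log2 difference lay between -2.53 and -2.24 for Dapl1, -2.19 and -1.98 for Igfbp4, -1.37 and -1.32 for Il6ra and -0.71 and -0.64 for Actn1, and all 4 passed each time, with adjusted p up to 0.0226. Txk lay between 0.11 and 0.41 and S1pr1 between -0.07 and -0.03 in those fits, and neither passed. With the mean level of the unnamed probe sets as a covariate, a choice made after the data were seen, Dapl1 (-2.49), Igfbp4 (-1.55) and Il6ra (-1.24) passed and Actn1 did not (-0.81, adjusted p = 0.117).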

How the data were processed

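Expression was measured on 6 arrays, and the table deposited by the authors holds log2 values. The submitters' processing notes name RMA and R 3.1.1. RMA subtracts background, gives all arrays 1 distribution and condenses probes into probe sets. Its settings and the genome build were not given in the sources. Array medians lay between 3.69 and 3.78, and precision is limited by the 6 arrays.

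Of 41345 probe sets, 23521 named exactly 1 gene symbol. Where a gene had several, its brightest on average was kept, which left 22180 genes. Tests used lmFit and eBayes of limma 3.58.1, run under R 4.3.3 with no covariate, Benjamini-Hochberg adjustment over all genes and a threshold of 0.05. The fit was tested on simulated data. Errors are SD of 3 arrays or standard errors (SE) of the fit, and folds are antilogs of the differences. Same-numbered arrays did not deviate together (r of -0.07, -0.16 and -0.07), so the replicate number was used only in an alternative.

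The markers, lists, tests and letter patterns were chosen with earlier results of these data known. Named were all 6 markers, Dot1l, up to 8 genes that passed in a list by smallest p (the 2 smallest p where fewer than 2 passed) and the 3 nearest profiles of each marker, leaving out predicted genes, receptor segments and olfactory genes. Further genes were named after their values were seen: Cd8a, Cd8b1, Cd3e and Cd4 as defining genes, Klf2, Cd69, Stat3, Adam10, Adam17, Il6, Ccr7, Il7r and the alpha-actinin genes for their known roles, and genes below background. Zyx, Tln1, Klrb1c, Ncr1, Ctla4, Prdm1, Foxo1, Bcl2 and Dgka were named because they passed under other settings. Klrg1 and Gzmk were named because their calls were lost, and Cx3cr1 for its sign. Alternatives were the replicate block, leaving out each array, another quantile normalization, median centring, array weights, a robust fit with a mean trend, probe sets averaged per gene or tested singly, filters on level (25th and 50th percentile), and a threshold of 0.01. Window sequences are from RefSeq, in which 5 of the 6 markers were matched by symbol.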

Additional observations from a re-analysis of the deposited data

Results flagged for a closer look

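The 16010 probe sets without a gene name, which entered no comparison, read higher in the knockout-labelled arrays, at a mean log2 level of 4.12 to 4.18 against 3.93 to 4.05 in wild type arrays, a difference of 0.16. Every knockout-labelled array read above every wild type array. This was singled out as a signal in data outside the gene tests. The values of the naive markers with this mean as a covariate are given with the other alternatives, and since the mean differs between the groups, its part and that of the genotype cannot be told apart.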

How the results depend on the processing

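The 4 falls among the markers passed in all 6 fits that left out an array and in the 9 other settings chosen with the design, where adjusted p reached at most 0.0179. Of the other settings, only another quantile normalization, median centring and array weights could move the differences. Each marker has 1 bright probe set, so the level filters and the probe set choices could change only its error and adjusted p. The same held for the block, because both groups hold every replicate number. It also held for the robust fit with a mean trend, which alters only the error. With the replicate block the markers gave the same 4 calls at the same differences, the naive list had 1 gene higher (main result 2), and over all genes 716 passed as higher and 196 as lower. In deviations from the group mean, no same-numbered pair of arrays correlated above 0.1, and no array correlated best with its own number. Without 1 array, the naive list had 1 to 2 genes higher and 3 to 4 lower, and the partner list 3 to 9 higher and 0 to 1 lower. Over all genes, 494 passed as higher and 121 as lower without knockout replicate 3, and 929 and 378 without wild type replicate 2. With trend and robust fitting 5 naive genes were higher and 6 lower. At a threshold of 0.01, 1 naive gene was higher and 3 lower, 3 partner genes were higher and 0 lower, and 439 genes in all were higher and 95 lower. With the covariate of unnamed probe sets, chosen after seeing the data, Actn1 differed by -0.81 and did not pass, Txk by -0.18, opposite in sign to its reported value, and S1pr1 by -0.01. The naive list then had 0 genes higher and 1 lower, the partner list 1 higher and 0 lower, and all genes 103 higher and 31 lower. The cause was not tested. The sizes of differences at probe sets near the background guide, such as those of Anxa1 and Chil5, are uncertain.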
